A study of Mus musculus with 8 samples.

Results

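Carbonic anhydrase transcripts were followed in mouse embryonic fibroblasts (MEFs), primary connective tissue cells grown from embryos, as the cells became senescent and were then moved to alkaline medium. The genes described are 10 members of the alpha carbonic anhydrase family, Car2, Car3, Car4, Car5b, Car6, Car8, Car9, Car12, Car13 and Car14, found by symbol among 54838 gene rows in each of 2 deposited tables. Car4 had no count in any library, Car6 had too few counts to be tested in the first comparison, and Car3 too few in the second.

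Polyadenylated RNA was sequenced in 8 libraries, 2 in each of 4 groups: n-Sen cells in alkaline medium, n-Sen cells in control medium, n-Sen cells without that step, and proliferating cells. "n-Sen" cells were arrested in G2 by RO3306, which inhibits CDK1, then given nutlin3a, which blocks MDM2 and so stabilises p53, at first with RO3306 and then alone for 48 h, and kept for 14 days with 100 nM of the PLK1 inhibitor BI-2536 to remove dividing cells. All 3 n-Sen groups carry these agents. The control and alkaline groups then spent 24 h in HEPES-buffered medium set to a control or an alkaline pH; the labels do not give the pH values. All cells were grown in serum-containing medium at low oxygen, and the proliferating cells are labelled as untreated controls. Senescence cannot be told apart from these agents and the time in culture. The labels do not say that replicates are separate cultures, so p-values measure only the spread between these libraries.

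Carbonic anhydrases interconvert carbon dioxide and water with bicarbonate and a proton. The isoforms differ in place: Car2, Car3 and Car13 are cytosolic, Car5b lies in mitochondria, Car9, Car12 and Car14 span the plasma membrane with the active site outside, Car4 is tethered to the outer membrane face by a lipid anchor, and Car6 is secreted. Car8 keeps the fold but has lost the zinc-binding needed for catalysis, and is known as a binding partner of the inositol trisphosphate receptor Itpr1. Car9 and Car12 are known targets of hypoxia-inducible factor in human tumour cells, where they help to export acid.

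Total counts ran from 40608517 to 54183060 per library. Between 67.5% and 69.1% of the whole values from 1 to 20 in a library were even numbers, so a small count may rest on fewer fragments than it shows. Replicates were not equal within counting error in any group (chi-square divided by its degrees of freedom of 4.63 to 7.39), so each library was kept as a separate sample. Levels are given as CPM (counts scaled to library size) on 1 scale for all 8 libraries, or as TPM (scaled to gene length as well) where genes are compared with each other. Fold changes are log2 values ± SE from edgeR's quasi-likelihood test, and a gene is called at a Benjamini-Hochberg adjusted p under 0.05 over all genes tested. RNA of whole cultures was measured, so fewer cells of a type and less RNA per cell cannot be told apart.

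The first comparison asks which carbonic anhydrase transcripts differed between n-Sen and proliferating cells. Car5b, Car8, Car9, Car12 and Car14 rose in n-Sen cells, by 1.66-fold (Car14) to 3.96-fold (Car5b), while the cytosolic Car13 fell to 0.505 of its proliferating level and the scarce Car3 fell as well. Car2 was not called. Thus 5 of 8 tested members were higher and 2 lower, which makes 7 of 8 called beside 67.1% of all 19264 tested genes, of which 34.0% were called higher and 33.1% lower. The libraries of n-Sen and proliferating cells did not overlap in any of the 8 tested members, and in 83.4% of all tested genes. A member's call is therefore a common event in this comparison. The median log2 fold change was 1.16 over the tested members and 0.0015 over all tested genes. Markers of another cell type moved with these genes: all 15 listed macrophage markers, among them Adgre1 and Csf1r, were called higher in n-Sen cells, with a summed level of 1305 to 1390 CPM there and 58.3 to 65.9 CPM in proliferating cells, and none was at 0. Their part in the members' changes was not tested.

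**Figure D1:**
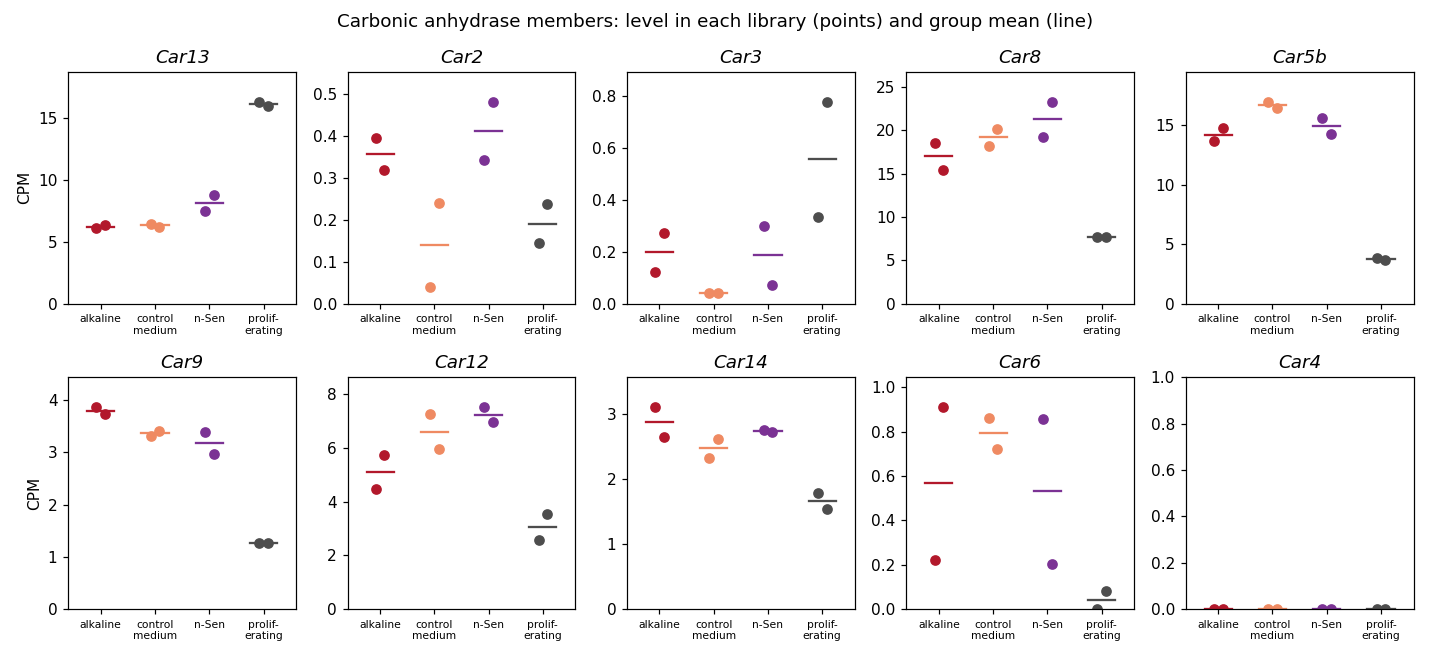
CPM of each of the 10 members (1 panel each, linear axis from 0) in the 2 libraries of each group (points) with the group mean (line). Car13 is highest in proliferating cells, at 16.3 and 16.0 CPM, Car5b, Car8, Car9, Car12 and Car14 are lowest there, and Car4 is at 0 throughout.

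Car13, a cytosolic isozyme, was the leading member in proliferating cells. Its CPM was 7.46 and 8.76 in n-Sen libraries, against 16.3 and 16.0 in proliferating libraries. The groups did not overlap, and both proliferating libraries were nearly equal. The log2 fold change was -0.99 ± 0.12 (edgeR adjusted p = 1.43e-06). Car13 lies on chromosome 3 (14641727 to 14663002, plus strand, GRCm38) at the end of a cluster of 4 family genes that spans 259044 bases with Car1, Car3 and Car2.

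The neighbours of Car13 in this cluster were close to the limit of detection. Car2, the fast and widely expressed cytosolic isozyme, had 16 and 26 counts in n-Sen libraries and 6 and 12 counts in proliferating libraries, a log2 fold change of 1.09 ± 0.62 that was not called (edgeR adjusted p = 0.136). Car3, a slow isozyme abundant in muscle and fat, had 14 and 4 counts in n-Sen libraries, against 14 and 39 counts in proliferating libraries. Its libraries thus differed within each group by more than 2-fold. Its call (-1.61 ± 0.68, edgeR adjusted p = 0.0466) was lost without n-Sen replicate 2 (adjusted p = 0.359), without proliferating replicate 2 (0.482), with DESeq2 (0.194) and in the fit with all 8 libraries (0.0762). Car1, an erythrocyte isozyme inside the cluster, had 0 counts in all 8 libraries.

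Car8, the member without catalysis, became the most abundant family transcript per length in n-Sen cells. Its CPM was 19.2 and 23.3 in n-Sen libraries, against 7.70 in each proliferating library. This is a log2 fold change of 1.47 ± 0.12 (edgeR adjusted p = 8.08e-09), and the lowest n-Sen library was well above both proliferating ones. Itpr1, the receptor that Car8 binds, also rose, with 77.0 ± 3.74 CPM in n-Sen cells and 41.2 ± 1.14 CPM in proliferating cells (SD, n = 2 each; log2 fold change 0.90 ± 0.07). Itpr1 was chosen after its values were seen, and 34.0% of all tested genes were called higher in n-Sen cells. Car8 lies on chromosome 4 (8143362 to 8239041, minus strand).

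Car5b, the mitochondrial isozyme, had the largest rise among the tested members. Its CPM was 15.6 and 14.3 in n-Sen libraries, against 3.86 and 3.70 in proliferating libraries. The log2 fold change of 1.99 ± 0.14 had an edgeR adjusted p of 5.91e-10 and lay between 1.93 and 2.05 in all 11 alternative fits. Mitochondrial carbonic anhydrase is known to supply bicarbonate to pyruvate carboxylase. The gene for that enzyme, Pcx, was at 35.5 ± 0.695 CPM in n-Sen cells and 12.6 ± 0.532 CPM in proliferating cells (SD, n = 2 each), a log2 fold change of 1.5 ± 0.09. Pcx is named because its change was among the largest in its list, and 34.0% of all tested genes were called higher in n-Sen cells. A link between Pcx and Car5b was not tested.

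The 3 transmembrane members all rose. Car12 had 7.5 and 6.96 CPM in n-Sen libraries, against 2.57 and 3.52 CPM in proliferating libraries (log2 fold change 1.24 ± 0.18, edgeR adjusted p = 1.19e-05). Car9 had 3.39 and 2.96 CPM in n-Sen libraries, against 1.27 CPM in each proliferating library (1.32 ± 0.24, edgeR adjusted p = 0.000133). The groups did not overlap for either gene, and neither was abundant. Car14 had 2.74 and 2.72 CPM in n-Sen libraries, against 1.78 and 1.53 CPM in proliferating libraries. Its log2 fold change of 0.73 ± 0.24 was called by edgeR (adjusted p = 0.013) but not by DESeq2 (0.0893) and not without proliferating replicate 2 (0.0545).

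Some of these values are uncertain because the strand setting of the counting was not given. Car9 shares 214 exonic bases with the antisense gene Gm12454, and Car14 shares 445 with Aph1a on the opposite strand. Both genes carried fractional counts in 4 of 8 libraries, all of them senescent and none proliferating, so reads of the overlapping genes may not be separated. The other 8 members share no exonic base with another gene of GENCODE vM21.

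Promoter windows of 3 members that rose together are shown, because Car9 and Car12 are known hypoxia targets and Car5b rose most. The Car9 window is chr4:43506776-43507075 on the plus strand, that of Car12 chr9:66713436-66713735 on the plus strand, and that of Car5b chrX:164027961-164028260 on the minus strand. Each runs from 250 bases before to 50 bases after the RefSeq start on GRCm38.p6, 5′ to 3′ on the gene's strand. Capitals mark every match to ACGTG or GCGTG, the core of the hypoxia-inducible factor motif, on either strand, so that a match on the other strand appears as its reverse complement.
Car9: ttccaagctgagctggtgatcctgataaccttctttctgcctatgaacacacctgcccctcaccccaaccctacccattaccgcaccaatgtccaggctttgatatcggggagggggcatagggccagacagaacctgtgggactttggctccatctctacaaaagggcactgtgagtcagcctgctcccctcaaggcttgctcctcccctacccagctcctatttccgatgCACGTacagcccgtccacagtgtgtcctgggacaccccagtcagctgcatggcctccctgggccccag
Car12: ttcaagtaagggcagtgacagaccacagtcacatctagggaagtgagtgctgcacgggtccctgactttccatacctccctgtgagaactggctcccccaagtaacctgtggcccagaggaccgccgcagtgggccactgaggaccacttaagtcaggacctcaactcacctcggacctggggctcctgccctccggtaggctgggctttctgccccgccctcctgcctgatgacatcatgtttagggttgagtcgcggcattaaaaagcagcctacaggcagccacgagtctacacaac
Car5b: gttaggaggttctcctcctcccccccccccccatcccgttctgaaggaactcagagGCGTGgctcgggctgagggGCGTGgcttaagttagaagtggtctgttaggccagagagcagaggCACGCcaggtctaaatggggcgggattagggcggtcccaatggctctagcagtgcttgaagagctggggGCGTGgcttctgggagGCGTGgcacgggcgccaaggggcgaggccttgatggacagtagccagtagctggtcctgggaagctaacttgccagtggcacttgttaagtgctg

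The Car9 window holds 1 ACGTG match, which begins at position -18 before the start, and 1 match to the AP-1 motif TGAGTCA. The Car5b window holds 5 GCGTG matches and the Car12 window none of either form. ACGTG occurred in 19.6% and GCGTG in 32.4% of all 32851 promoter windows of this length, with both strands searched. Either form or both occurred in 43.8%. TGAGTCA occurred in 5.20%. RefSeq windows were matched for 6 of the 10 members, not for Car2, Car3, Car8 and Car13. Of the matched windows not shown, that of Car14, which rose, held 1 ACGTG match. The Car6 window held 2 overlapping ACGTG matches and 1 GCGTG match, and that of Car4, without counts in any library, held 1 ACGTG match. A match describes the letters of the window and says nothing of binding.

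Car6, the secreted isozyme of saliva, and Car4 stood at the low end. Car6 had 40 and 11 counts in n-Sen libraries and 0 and 4 counts in proliferating libraries, and was removed by the filter on low counts. Without that filter its log2 fold change was 3.57 (edgeR adjusted p = 0.000174), but the n-Sen libraries differed from each other by more than 3-fold. For Car4 a count of 0 allows up to 3 counts per library, or 0.0554 to 0.0739 CPM on unscaled totals; this limit covers counting error only.

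**Figure D2:**
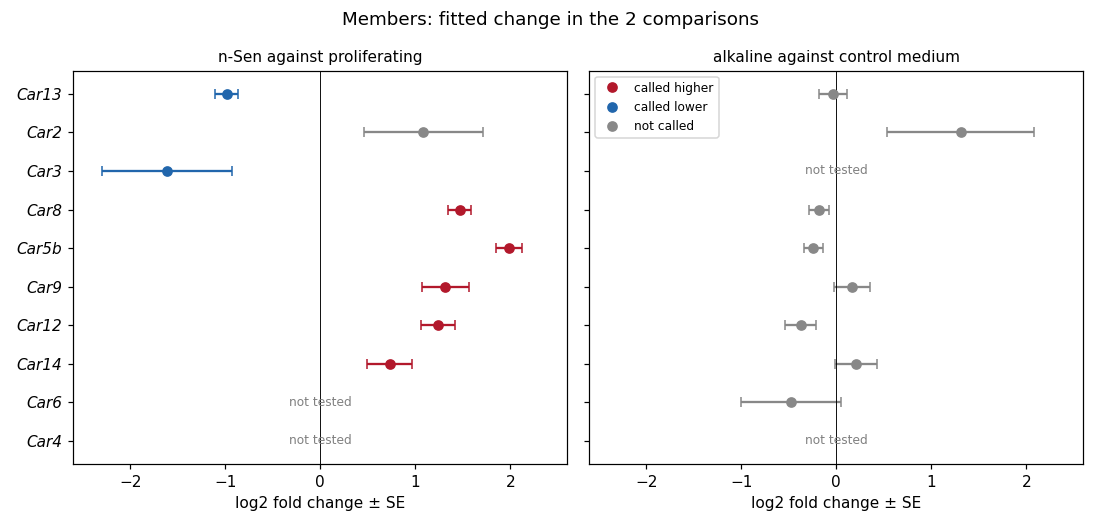
Log2 fold change (horizontal axis) ± SE of each member in n-Sen against proliferating cells (left) and in alkaline against control medium (right). On the left Car5b lies farthest to the right at 1.99 and Car3 farthest to the left at -1.61; on the right no member was called.

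Per gene length, the make-up of the 10 members differed between the states. The summed level of the 10 members was 47.6 ± 1.14 TPM in n-Sen cells and 35.1 ± 1.0 TPM in proliferating cells (SD, n = 2 each). Car13 made up 23.0% ± 1.82 of this sum in n-Sen cells and 60.9% ± 1.23 in proliferating cells. No test was run on these shares. Car8 made up 35.9% ± 3.57 in n-Sen cells and 17.4% ± 0.116 in proliferating cells, and Car5b 15.4% ± 1.51 in n-Sen cells and 5.18% ± 0.191 in proliferating cells. The 3 transmembrane members together held 22.2% ± 2.0 in n-Sen cells and 13.9% ± 0.0974 in proliferating cells.

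The order of the members by TPM changed accordingly. In n-Sen cells Car8 (17.1 ± 2.11 TPM) stood above Car13 (10.9 ± 1.13), Car5b (7.32 ± 0.542), Car9 (4.28 ± 0.467), Car14 (3.33 ± 0.0435) and Car12 (2.96 ± 0.186). In proliferating cells Car13 (21.4 ± 0.179 TPM) stood above Car8 (6.10 ± 0.133), Car14 (1.98 ± 0.163), Car5b (1.82 ± 0.0151), Car9 (1.69 ± 0.0387) and Car12 (1.23 ± 0.298). Among these 6 members the libraries of no neighbours in the order overlapped in either group. Car6 and Car2 overlapped in n-Sen cells and in alkaline medium, Car14 and Car12 overlapped in control medium, and Car6 and Car4 in proliferating cells. The family gene Car11 is not a member and is left out of these sums, shares and orders. It was at 8.89 ± 0.76 TPM in n-Sen cells, above Car5b, and at 0.176 ± 0.0683 TPM in proliferating cells.

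**Figure D3:**
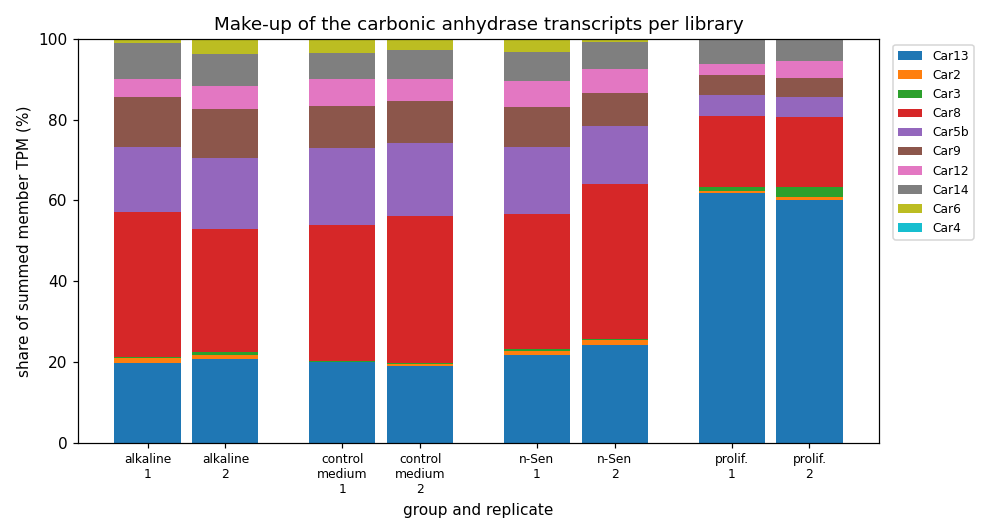
Share of each member (colours) in the summed TPM of the 10 members, in percent, for each library, with groups from left to right in the order alkaline medium, control medium, n-Sen and proliferating. Car13 takes 60.1% and 61.8% in the proliferating libraries and between 18.9% and 24.3% in the 6 n-Sen libraries.

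The second comparison, alkaline against control medium, follows the stated purpose of the series, the response of senescent cells to alkaline surroundings. No member was called: 0 of 8 tested members passed edgeR's adjusted threshold, beside 20.0% of 19129 tested genes. At an unadjusted p under 0.05 edgeR counted 2 members, Car5b and Car12, and DESeq2 counted 0 at either threshold. All genes in the 20.0% also pass this looser threshold, and the full share of genes there was not counted. The median log2 fold change was -0.11 over the tested members and -0.0093 over all tested genes. Of the 15 macrophage markers 8 were lower in alkaline medium, with sums of 1176 CPM in both alkaline libraries and of 1274 and 1342 CPM in control medium, and their part in the members' values was not tested.

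Car12 had 4.48 and 5.73 CPM in alkaline medium, against 7.24 and 5.95 CPM in control medium. The groups did not overlap but nearly met, and the log2 fold change was -0.37 ± 0.16 (edgeR adjusted p = 0.118). It passed when control medium replicate 2 (-0.51, adjusted p = 0.0433) or alkaline medium replicate 2 (-0.57, adjusted p = 0.028) was left out, where the remaining lone library is assumed to vary like the others. Over all 11 alternatives its adjusted p ran from 0.028 to 0.542.

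Car5b had 13.7 and 14.8 CPM in alkaline medium, against 17.0 and 16.5 CPM in control medium. This is a log2 fold change of -0.24 ± 0.10 (edgeR adjusted p = 0.0973), without overlap between the groups. Of the 8 tested members 5 had no overlap between the media, beside 56.7% of all tested genes. Car9 had 3.86 and 3.73 CPM in alkaline medium, against 3.32 and 3.42 CPM in control medium (0.16 ± 0.18, edgeR adjusted p = 0.622). The direction of Car9 and of Car14 (0.21 ± 0.22, edgeR adjusted p = 0.59) was upward, each by no more than its SE.

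Car8 and Car13, the most abundant members per length, differed little between the media. Car13 had 6.09 and 6.32 CPM in alkaline medium, against 6.42 and 6.23 CPM in control medium, with a log2 fold change of -0.034 ± 0.14 (edgeR adjusted p = 0.915). Car8 had 18.6 and 15.5 CPM in alkaline medium and 18.2 and 20.2 CPM in control medium (-0.18 ± 0.10, edgeR adjusted p = 0.247), and the groups overlapped. A missed threshold does not show that levels were equal.

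The scarce members varied between libraries of the same medium. Car2 had 16 and 14 counts in alkaline medium and 2 and 12 counts in control medium (log2 fold change 1.31 ± 0.77, edgeR adjusted p = 0.272). Car6 had 9 and 40 counts in alkaline medium and 42 and 36 counts in control medium (-0.48 ± 0.53, adjusted p = 0.614), and its direction turned without alkaline medium replicate 1. Car3 had 5 and 12 counts in alkaline medium and 2 in each control library, which left it untested. The summed level of the members was 41.1 ± 0.152 TPM in alkaline medium and 44.0 ± 0.808 TPM in control medium (SD, n = 2 each). The transmembrane share of this sum was 25.8% ± 0.168 in alkaline medium and 23.3% ± 0.482 in control medium. No test was run on these sums and shares, and Car9, Car12 and Car14 were not called.

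To place the 4 groups on 1 scale, control medium was also set against n-Sen cells without the medium step in a fit of all 8 libraries. These groups stand in different deposited tables, so the medium cannot be told apart from differences in handling between tables, and each of the other comparisons shares libraries with this one. No member was called (0 of 9 tested by edgeR, beside 11.1% of 20215 genes). At an unadjusted p under 0.05 edgeR and DESeq2 each counted 1, Car13. All genes in the 11.1% also pass edgeR's unadjusted threshold, and the full share of genes there was not counted. Car13 had 6.42 and 6.23 CPM in control medium, against 7.46 and 8.76 CPM in n-Sen cells (-0.36 ± 0.13, edgeR adjusted p = 0.0789). Car5b, Car8, Car9, Car12 and Car14 had log2 fold changes between -0.15 (Car8) and 0.16 (Car5b). In each of these 5 genes, already called higher in n-Sen cells, the lowest of the 6 senescent libraries stood above both proliferating libraries. The share of all genes with this separation was not counted. For n-Sen against proliferating libraries alone, 83.4% of all tested genes did not overlap in either direction. The separation of these genes is therefore a description only.

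The remaining carbonic anhydrase genes show where the family also moved. Car11, which like Car8 lacks catalysis, had 5.81 and 5.22 CPM in n-Sen libraries, against 0.144 and 0.0796 CPM in proliferating libraries. That is a log2 fold change of 5.63 ± 0.33 (edgeR adjusted p = 8.97e-11), resting on 6 and 4 counts in the proliferating libraries. In alkaline medium Car11 had 3.54 and 3.80 CPM, against 4.31 and 6.03 CPM in control medium, and was not called (-0.50 ± 0.18, edgeR adjusted p = 0.0598). It was called without the filter on low counts (adjusted p = 0.0375) and without control medium replicate 1 (0.00511). Car10, the third of these catalytically inactive relatives, was called lower in alkaline medium. It had 0.619 and 0.591 CPM there, against 1.54 and 1.37 CPM in control medium (-1.27 ± 0.37, edgeR adjusted p = 0.0149), a call lost with DESeq2 (0.0891) and without control medium replicate 1 (0.1001). In n-Sen against proliferating cells Car10 was not called (0.78 ± 0.35, edgeR adjusted p = 0.0551), but it was in 5 of 11 alternatives, among them no filter on low counts (0.0209) and leaving out proliferating replicate 1 (adjusted p = 0.00328). Car7 and Car15 were not called in either comparison, Car7 being called in alkaline medium only without control medium replicate 2 (adjusted p = 0.0115), and Car1 and Car5a had 0 counts in all libraries.

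Genes that carry or use the products of the reaction were called in both directions, as were genes at large. Of 23 listed bicarbonate and proton partners, 19 could be tested in the first comparison, and 8 of them rose while 9 fell in n-Sen cells (median log2 fold change 0.072), beside 34.0% of all tested genes called higher and 33.1% lower. Slc16a1, a lactate and proton cotransporter, fell to 11.3 ± 0.161 CPM in n-Sen cells, against 59.2 ± 1.36 CPM in proliferating cells (SD, n = 2 each). The chloride and bicarbonate exchanger gene Slc4a3 rose (1.40 ± 0.13), as did Slc16a4 (1.35 ± 0.17) and Pcx, given above. In alkaline against control medium 5 of 19 were higher and 3 lower (median 0.015), beside 20.0% of all tested genes called in either direction. There the water channel gene Aqp1 fell to 27.3 ± 2.06 CPM, against 65.4 ± 5.78 CPM in control medium, while the lactate exporter gene Slc16a3 (0.71 ± 0.08) and the sodium and proton exchanger gene Slc9a5 (0.66 ± 0.11) rose and Slc26a11 fell (-0.44 ± 0.12, not called by DESeq2 or without control medium replicate 2). The members themselves had no call in that comparison.

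Hypoxia factors and targets include the regulators known for Car9 and Car12. In n-Sen against proliferating cells 11 of 20 genes were called higher and 5 lower (median log2 fold change 0.29), beside 34.0% and 33.1% of all tested genes. Epas1, which encodes HIF-2 alpha, rose by 2.31 ± 0.08, the oxygen sensor gene Egln3 fell (-2.09 ± 0.15), the peptide hormone gene Adm fell (-1.40 ± 0.07) and the oxidase gene Ero1l rose (1.18 ± 0.06). In alkaline against control medium 8 were higher and 2 lower (median 0.13), beside 20.0% of all tested genes called in either direction. Vegfa, the vascular growth factor gene, rose to 436 ± 0.701 CPM in alkaline medium, against 191 ± 2.82 CPM in control medium. Adm fell by 1.95 on the log2 scale, Ankrd37 rose (0.90 ± 0.25, not called by DESeq2 or without alkaline medium replicate 2) and Epas1 fell (-0.61 ± 0.07), while Car9 and Car12 were not called. Hif1a, which encodes HIF-1 alpha, was called higher in n-Sen against proliferating cells (0.62 ± 0.06) and in alkaline against control medium (0.18 ± 0.04). The part of these factors in the members' values was not tested.

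**Figure D4:**
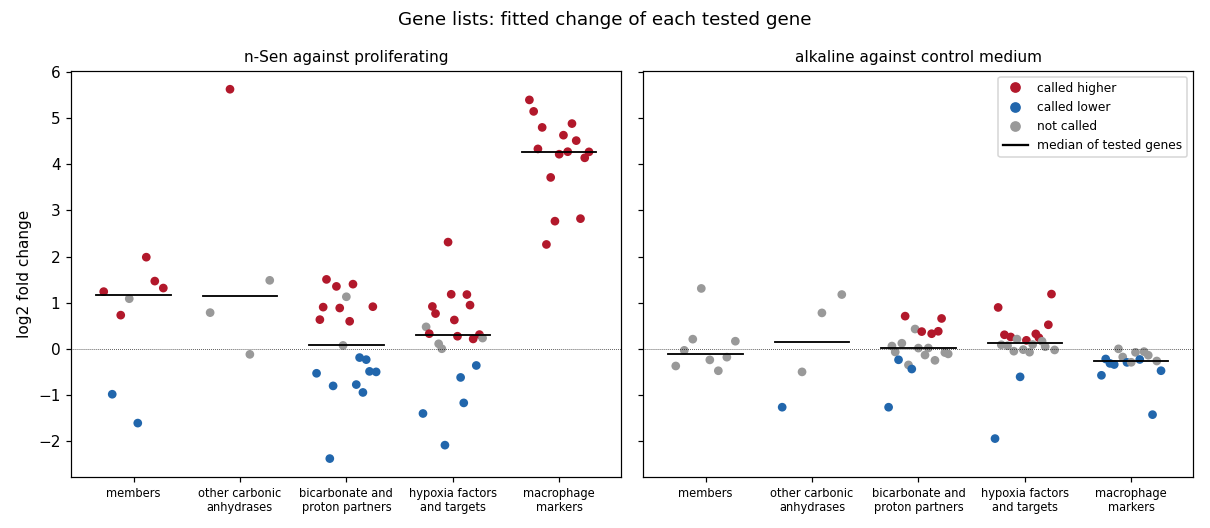
Log2 fold change of each tested gene (points, coloured by call) in 5 lists with the list median (line), for n-Sen against proliferating cells (left) and alkaline against control medium (right). Members lie between -1.61 and 1.99 on the left, with Car11 of the other family genes at 5.63 and the macrophage list around a median of 4.27.

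The cultures carried the markers of their labelled cell type. Fibroblast markers summed to 37708 and 38555 CPM in n-Sen libraries and 16982 and 17298 CPM in proliferating libraries, with all 12 present. Much of this sum was the matrix gene Fn1, with a mean of 20246 CPM in n-Sen cells and 5513 CPM in proliferating cells. Of the 12, 10 were called higher and 2 lower in n-Sen cells, beside 67.1% of all tested genes called, and Pdgfra fell by 3.17 on the log2 scale. The fat and erythroid lists, cell types known for Car1, Car2 and Car3, were mixed. Adipoq, Cidec, Lep, Cfd and Retn of the fat list had no count in any library. Lpl and Pparg were called lower in n-Sen cells, Plin4 was called higher and Fabp4 was not called. Lpl was at 20.7 CPM in n-Sen cells and 46.9 CPM in proliferating cells, and Plin4 at 18.1 CPM in n-Sen cells and 8.63 CPM in proliferating cells. The list summed to between 49.6 and 50.8 CPM in n-Sen libraries and between 73.7 and 75.9 CPM in proliferating libraries. Of the erythroid list the 4 globin genes and Slc4a1 had no count, and Epor was called higher in n-Sen cells, at 0.39 CPM there and 0.0439 CPM in proliferating cells. The part of these cell types in the members' values was not tested.

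The genes whose level followed that of Car8, the member with the highest mean CPM, most closely over the 8 libraries were Pxmp4, Sorl1 and Ndufa7. Pearson's r of log2(CPM + 1) was 0.995, 0.995 and 0.994, among 11611 genes with a mean of at least 5 CPM. This is a description only: 2249 of these genes had r over 0.9, and the 6 senescent libraries stand apart from the 2 proliferating ones, as Pxmp4 shows with a mean of 15.2 CPM in n-Sen cells and 6.18 CPM in proliferating cells.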

How the data were processed

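Per the labels' protocols, RNA was extracted with TRIzol and columns, and strand-marked (dUTP) poly(A) libraries were made. The submitters' processing notes list DESeq2 1.34.0, Subread 2.0.2 with featureCounts, HISAT2 2.1.0 and fastp 0.23.2, and the build mm10 (GRCm38). The annotation release and the strand setting are not given in the sources used here. The authors deposited expected counts (estimated counts per gene, 32.7% to 33.7% of the nonzero values of a library fractional) in 2 tables, which were rounded to whole numbers. Symbols, exon lengths and coordinates came from GENCODE vM21 (54809 of 54838 IDs matched).

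Low genes were removed by filterByExpr, libraries were scaled by TMM, and edgeR 4.0.16 (R 4.3.3) gave quasi-likelihood tests, with Benjamini-Hochberg adjustment over all genes. Each of the first 2 comparisons was fitted on its own 4 libraries; control medium against n-Sen used all 8. The SE is the absolute log2 fold change divided by the square root of F. TPM used exon-union lengths, which are longer than a single transcript. Alternatives were RLE scaling, no filter, DESeq2 1.42.0, unrounded counts, other libraries in the fit, a replicate block, leaving out each library, and halved counts, the last chosen after seeing the data. The scripts were tested on simulated data. Members and lists (bicarbonate and proton partners, hypoxia, and markers of macrophages, osteoclasts, fat, muscle, erythroid, endothelial, epithelial and neural cells and fibroblasts) were chosen with earlier results of these data known. Named partner and hypoxia genes are the called ones of largest change, up to 4 per list in each of the first 2 comparisons. Itpr1 and Hif1a are named in addition, chosen after their values were seen. Ahsp of the erythroid list had no row.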

Additional observations from a re-analysis of the deposited data

How the results depend on the processing

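The calls of Car5b, Car8, Car9, Car12 and Car13 in n-Sen against proliferating cells kept their direction and passed in all 11 alternatives. Those of Car3 and Car14 did not, as given beside them, and with halved counts Car3 was no longer tested. Car6 was called higher there by DESeq2, without the filter, with all 8 libraries in the fit, and when either proliferating library or n-Sen replicate 2 was left out. The number of members called there ran from 6 to 8 over the alternatives, and leaving out single libraries also gave 6 to 8. In alkaline against control medium leaving out single libraries gave between 0 and 1 called members, Car12 being the 1, and in control medium against n-Sen it gave 0. Leaving out single libraries moved the genes called in control medium against n-Sen to between 1181 and 1382, against 2253 with all libraries. It also turned the direction of uncalled members. Car6 ran from -1.83 to 0.19 in alkaline against control medium and from -0.12 to 1.95 in control medium against n-Sen. In control medium against n-Sen Car9 ran from -0.010 to 0.19 and Car12 from -0.28 to 0.00445, and the uncalled Car15 ran from -0.82 to 0.37 in n-Sen against proliferating cells. The cause was not tested. The labels do not tie replicate numbers to shared cultures, and same-numbered libraries did not deviate together (correlations between -0.0040 and -0.00084). With the replicate number as a block edgeR called 12726, 4310 and 2078 genes in the 3 comparisons and 6, 0 and 0 members. The block ended the call of Car3 (adjusted p = 0.0528) and changed no other call of a member; Car10 in n-Sen against proliferating cells (0.0346) and Car11 in alkaline against control medium (0.0345) passed under it. Depth limits Car2, Car3 and Car6, which had at most 42 counts in a library.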

Other observations

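Calls of other cell-type markers are to be read beside all tested genes, of which 67.1% were called in n-Sen against proliferating cells and 20.0% in alkaline against control medium. Of the osteoclast list, a cell type known for Car2, 4 of 7 tested genes were higher and 0 lower in n-Sen against proliferating cells, with sums of 131 and 134 CPM in n-Sen libraries and 88.4 and 88.8 CPM in proliferating libraries, and Dcstamp had no count. Of 4 tested fat markers 1 was higher and 2 lower in n-Sen cells, of 7 muscle markers 3 and 3, of 2 erythroid markers 1 and 0, of 4 endothelial markers 1 and 2, of 6 epithelial markers 1 and 4, of 6 neural markers 3 and 1, and of 12 fibroblast markers 10 and 2. In alkaline against control medium the counts of higher and lower genes were 3 and 1 of 7 for osteoclasts, 0 and 3 of 4 for fat, 1 and 1 of 6 for muscle, 0 and 0 of 2 for erythroid cells, 1 and 0 of 5 each for endothelial, epithelial and neural cells, and 3 and 7 of 12 for fibroblasts.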
